A study of Homo sapiens with 10 samples.

Results

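The inducible heat shock chaperones are 10 human genes that were chosen by name, HSPA1A, HSPA1B, HSPA8, HSP90AA1, HSP90AB1, HSPH1, HSPD1, HSPE1, DNAJB1 and HSPB1. They were read out in human microglia (hMG) that had been recovered from mouse brains by enzymatic dissociation and sorting, so that their level in each library can be looked at as a possible mark of that handling. All 10 are among the 36591 human genes listed, and all 10 are among the 15455 human genes left after a filter on low counts, which asked for 10 or more counts in 6 or more of the 10 libraries. The cells came from H9, a human embryonic stem cell line long in use, and were transplanted at postnatal day 4 and sorted at 6 months of age as cells positive for CD11b and human CD45. Every host lacked Rag2 and carried human CSF1 in place of the mouse gene (Rag2KO-hCSF1KI), and the pups had been given a CSF1R inhibitor before the graft. AppHu hosts, named AppKI in the labels, have the Aβ stretch of mouse App changed to the human residues and no mutation of familial disease, and AppSAA hosts have the same stretch together with the Swedish, Arctic and Austrian mutations. There were 5 libraries per group, numbered 3, 4, 6, 7 and 8 in AppHu and 4, 5, 6, 7 and 8 in AppSAA, all grafted with 1 cell line and with mice of both sexes in each group.

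Heat shock chaperones bind unfolded proteins and help them fold, hold them soluble or pass them on for degradation. When proteins unfold, as on heating, the transcription factor HSF1 is released from chaperones, forms trimers and binds heat shock elements, runs of the unit NGAAN in alternating orientation, in the promoters of its target genes. Some members, such as HSPA8 and HSP90AB1, are also made in unstressed cells in large amounts, while others, such as HSPA1A, HSPA1B and DNAJB1, depend more on stress. Microglia taken out of brain tissue with warm enzymes are known to switch on heat shock and immediate early genes during the procedure.

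Total counts ranged from 25040739 to 39641854 per library, of which 2.12% to 4.97% fell on mouse genes. The human microglia markers were all detected (10 of 10, at 322 to 547107 counts), whereas the 3 pluripotency genes had at most 10 counts in any library. Of the 5 monocyte genes listed, only FCN1 was at 0 in all libraries, and S100A8 had from 5 counts (AppHu 3) to 456 (AppSAA 4). Library AppSAA 4 stood apart in the monocyte list, whose summed level was 23.1 CPM (counts scaled by the library total) there and at most 2.99 CPM in every AppHu library. Between AppSAA and AppHu, edgeR's quasi-likelihood test called 12 of the 15455 human genes at an adjusted p under 0.05, or 0.0776%, and DESeq2 called 215, or 1.39%. An unadjusted p under 0.05 was reached in edgeR by 1514 genes, or 9.80%. In bulk samples fewer cells of a type and less RNA per cell cannot be told apart.

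None of the 10 chaperones passed the threshold, in edgeR (0 of 10) or in DESeq2 (0 of 10). DNAJB1, HSPE1 and HSP90AA1 had an unadjusted p under 0.05 in edgeR, and all 3 had the higher mean in AppSAA. Against these 3 of 10 stand 5.99% of all genes tested with an unadjusted p under 0.05 and a higher level in AppSAA, and for either direction 9.80%. The log2 fold changes of AppSAA against AppHu ran from -0.22 (HSPH1) to 0.61 (DNAJB1) with a median of 0.15, and 7 of 10 were above 0, beside a median of 0.0018 and 7801 of 15455 above 0 over all genes tested. The libraries of the groups overlapped for every one of the 10 genes. Over all genes tested, the groups did not overlap for 2.49%. The 10 genes together took 0.474% to 0.632% of the human counts in AppHu and 0.580% to 0.698% in AppSAA.

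**Figure D1:**
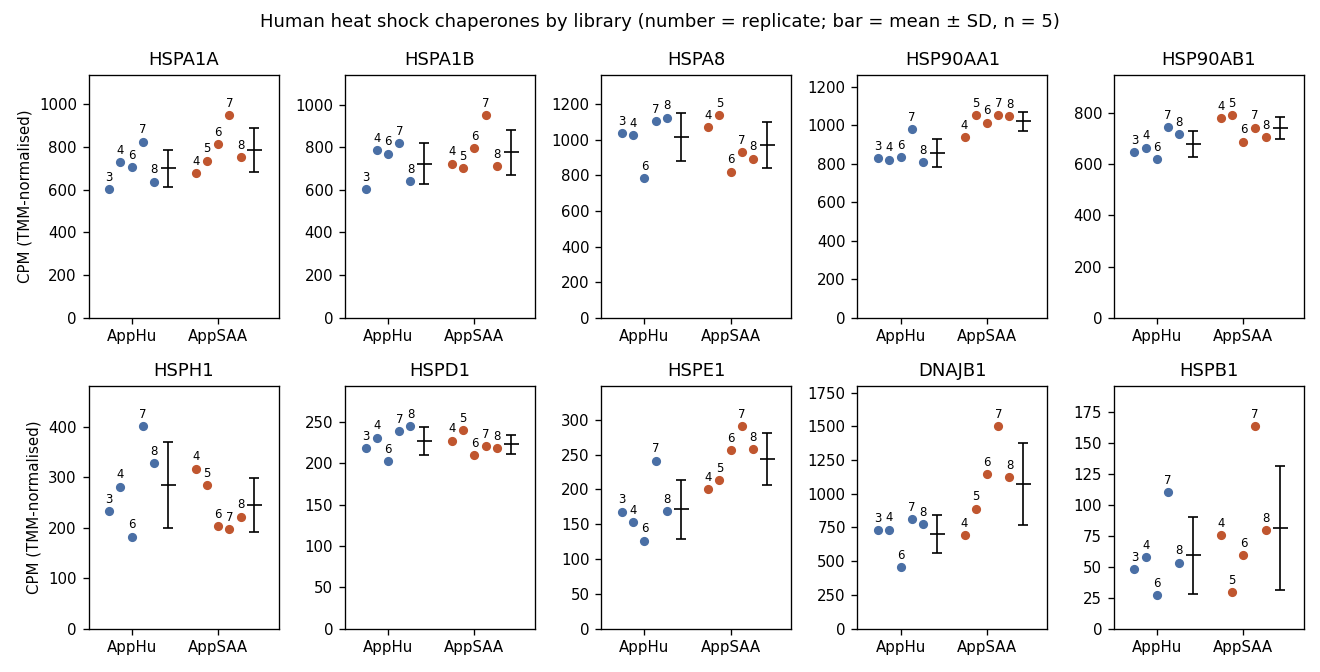
Each panel shows 1 heat shock chaperone, with the TMM-normalised level in CPM on the vertical axis from 0, 1 point per library labelled with its replicate number, and a bar for the mean ± SD of each group (n = 5). AppSAA 7 is the highest library for HSPA1A, HSPA1B, HSP90AA1, HSPE1, DNAJB1 and HSPB1. AppHu 7 is the highest for HSPH1, and the groups overlap in all 10 panels.

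Part of the promoter of a few members is shown here because the heat shock element is the feature through which HSF1 acts on them. RefSeq windows of 300 bases, from 250 before to 50 after a start site (GRCh38.p14), were found for all 10 genes. They were searched on both strands for TTCNNGAA or GAANNTTC, an element of 2 units, and for TTCNNGAANNTTC or GAANNTTCNNGAA, an element of 3 units, which contains an element of 2 units. A match to 2 units lay in a window of 8 of the 10 genes, and one to 3 units in a window of 4 (HSPA8, HSP90AA1, HSP90AB1 and HSPD1). By window, 9 of the 16 windows of these genes held 2 units and 4 of the 16 held 3 units, against 13.5% and 0.49% of all 35116 windows. HSPE1 and HSPH1 had no match, which says only that these letters are not in their windows. The HSPE1 window, chr2:197500129-197500428, does not cover the HSPD1 stretch printed below, which lies just before it on the forward strand. The stretches of 60 bases below are in transcript orientation, with each match in capitals. HSPA1A is at chr6:31815411-31815470 (forward strand), HSPA1B at chr6:31827607-31827666 (forward), HSPA8 at chr11:123062327-123062386 (reverse), DNAJB1 at chr19:14518441-14518500 (reverse), HSP90AA1 at chr14:102087097-102087156 (reverse) and HSPD1 at chr2:197500031-197500090 (reverse).
HSPA1A: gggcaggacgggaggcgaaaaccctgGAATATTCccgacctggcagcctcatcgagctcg
HSPA1B: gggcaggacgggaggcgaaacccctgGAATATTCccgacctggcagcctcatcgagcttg
HSPA8: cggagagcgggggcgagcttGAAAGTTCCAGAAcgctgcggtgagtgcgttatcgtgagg
DNAJB1: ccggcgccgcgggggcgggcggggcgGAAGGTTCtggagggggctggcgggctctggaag
HSP90AA1: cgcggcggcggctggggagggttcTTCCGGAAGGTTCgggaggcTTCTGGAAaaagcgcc
HSPD1: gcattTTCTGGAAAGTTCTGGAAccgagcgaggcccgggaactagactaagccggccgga

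HSPA1A and HSPA1B encode the main stress-inducible HSP70, an ATP-driven chaperone, from a pair of intronless genes in the MHC region of chromosome 6 (HSPA1A ENSG00000204389.10, 31815543 to 31817946, and HSPA1B ENSG00000204388.7, 31827738 to 31830254, both forward strand, GENCODE 44 on GRCh38). Their promoter windows are 92.6% identical over 299 bases. Of the 101-base stretches of the HSPA1A transcript, 72.3% also occur in HSPA1B, so the authors' counting could split their reads and the values of each are uncertain. HSPA1A had 603, 729, 704, 824 and 638 CPM in AppHu libraries 3, 4, 6, 7 and 8, and 677, 735, 813, 948 and 751 CPM in AppSAA libraries 4, 5, 6, 7 and 8. The highest library of each group was its replicate 7, and 1 of the 5 AppSAA libraries lay above all AppHu libraries. The log2 fold change was 0.17 with a standard error of 0.0996, and the interval of 2 standard errors on each side ran from -0.033 to 0.37 (adjusted p = 0.655 in edgeR and 0.700 in DESeq2). HSPA1B had 723 ± 95.6 CPM (SD, n = 5) in AppHu and 776 ± 104 CPM (SD, n = 5) in AppSAA, a log2 fold change of 0.10 with a standard error of 0.104 (adjusted p = 0.825 in edgeR). The ratio of HSPA1A to HSPA1B stayed between 0.914 and 1.06 in all 10 libraries.

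HSPA8 (ENSG00000109971.14, chromosome 11 from 123057489 to 123063230, reverse strand) encodes HSC70, the form of HSP70 that cells make all the time. It had 1038, 1028, 785, 1107 and 1124 CPM in the AppHu libraries and 1073, 1138, 821, 931 and 894 CPM in the AppSAA libraries, in the order of their numbers. AppHu 6 and AppSAA 6 were the lowest of their groups, and the groups covered nearly the same range. Its log2 fold change was -0.065 with a standard error of 0.108 (adjusted p = 0.905 in edgeR). The ratio of HSPA1A plus HSPA1B to HSPA8 compares the inducible with the constitutive form within a library, where scaling between libraries cancels. It was 1.16, 1.47, 1.88, 1.48 and 1.14 in the AppHu libraries and 1.30, 1.26, 1.96, 2.04 and 1.63 in the AppSAA libraries. AppHu 6, with the lowest HSPA8, had the highest ratio of its group, and the groups overlapped. The mean log2 ratio was 0.20 higher in AppSAA, at 0.69 ± 0.32 (SD, n = 5) against 0.49 ± 0.30 (SD, n = 5), a difference that did not pass the 2-sided exact permutation test over 252 arrangements (p = 0.349, smallest possible p 0.00794).

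DNAJB1 (ENSG00000132002.9, chromosome 19 from 14514769 to 14560391, reverse strand) encodes an HSP40, the J-domain protein that delivers unfolded proteins to HSP70 and stimulates its ATPase. Of the 10 genes it had the largest log2 fold change. It had 733, 735, 455, 814 and 775 CPM in the AppHu libraries and 693, 889, 1147, 1503 and 1123 CPM in the AppSAA libraries. Of the AppSAA libraries 4 lay above every AppHu library, and AppSAA 4 lay below 4 of the 5 AppHu libraries. The mean was 702 ± 142 CPM (SD, n = 5) in AppHu and 1071 ± 305 CPM (SD, n = 5) in AppSAA. The log2 fold change was 0.61, or 1.52-fold, with a standard error of 0.193 and an interval from 0.22 to 1.00. Its unadjusted p was 0.00796 and its adjusted p 0.283 in edgeR, and its adjusted p 0.0917 in DESeq2. Without AppSAA 7, the highest library, the log2 fold change was 0.46, and over the libraries left out in turn the adjusted p in edgeR ran from 0.189 to 0.485.

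HSPH1 (ENSG00000120694.20, chromosome 13 from 31134973 to 31162388, reverse strand) encodes HSP110, which exchanges the nucleotide on HSP70 and so completes the cycle that DNAJB1 starts. It had 232, 282, 182, 402 and 327 CPM in the AppHu libraries and 317, 284, 203, 197 and 222 CPM in the AppSAA libraries. AppSAA 6, 7 and 8, the 3 highest libraries for DNAJB1, were the 3 lowest of their group for HSPH1. The log2 fold change was -0.22 with a standard error of 0.195 (adjusted p = 0.790 in edgeR). The ratio of DNAJB1 to HSPH1 counts lay between 2.03 and 3.15 in the AppHu libraries and was 2.19, 3.13, 5.64, 7.64 and 5.06 in AppSAA 4, 5, 6, 7 and 8. This ratio was chosen after the values were seen and was not tested.

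HSP90AA1 and HSP90AB1 encode the stress-inducible and the constitutive cytosolic HSP90, chaperones that mature kinases and receptors late in folding. HSP90AA1 (ENSG00000080824.19, chromosome 14 from 102080742 to 102139699, reverse strand) had 831, 822, 836, 982 and 809 CPM in the AppHu libraries and 938, 1052, 1014, 1053 and 1049 CPM in the AppSAA libraries. AppHu 7 was the 1 AppHu library that reached into the AppSAA range, and AppSAA 4 was the 1 AppSAA library below it. HSP90AA1 had the smallest unadjusted p of the 10 genes (0.00141, rank 139 of the 15455 genes tested), with a log2 fold change of 0.25, or 1.19-fold, a standard error of 0.0625 and an interval from 0.13 to 0.38. After adjustment its p was 0.157 in edgeR and 0.0502 in DESeq2. Without AppHu 7 the log2 fold change was 0.31 (adjusted p = 0.0830 in edgeR).

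HSP90AB1 (ENSG00000096384.20, chromosome 6 from 44246166 to 44253888, forward strand) was measured at 678 ± 51.2 CPM (SD, n = 5) in AppHu and 741 ± 44.8 CPM (SD, n = 5) in AppSAA. AppSAA 4 and 5 were its 2 highest libraries, and the other 3 AppSAA libraries lay inside the AppHu range. Its log2 fold change was 0.13 with a standard error of 0.0639, and the interval ran from -0.00059 to 0.25 (adjusted p = 0.558 in edgeR).

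HSPD1 and HSPE1 encode HSP60 and its lid HSP10, which together form the folding chamber of the mitochondrial matrix, and are transcribed head to head from a shared promoter region on chromosome 2. In GENCODE 44 HSPD1 (ENSG00000144381.18) runs from 197486584 to 197516737 on the reverse strand and HSPE1 (ENSG00000115541.11) from 197500140 to 197503449 on the forward strand. HSPD1 had the narrowest range of the 10 genes, from 202 to 245 CPM (median 231) in AppHu and from 209 to 240 CPM (median 220) in AppSAA. Its log2 fold change was -0.025 with a standard error of 0.0641, and the interval ran from -0.15 to 0.10 (adjusted p = 0.947 in edgeR). HSPE1 had 168, 153, 126, 242 and 169 CPM in the AppHu libraries and 200, 213, 257, 291 and 258 CPM in the AppSAA libraries. AppHu 7 was the 1 AppHu library inside the AppSAA range. The log2 fold change of HSPE1 was 0.51, or 1.42-fold, with a standard error of 0.153 and an interval from 0.20 to 0.81 (unadjusted p = 0.00580 and adjusted p = 0.255 in edgeR, adjusted p = 0.0875 in DESeq2). The ratio of HSPE1 to HSPD1 counts was 0.769, 0.663, 0.625, 1.01 and 0.688 in the AppHu libraries and 0.880, 0.889, 1.23, 1.32 and 1.18 in the AppSAA libraries, again with AppHu 7 alone inside the AppSAA range. Of the 101-base stretches of the HSPE1 transcript, 31.3% occur in another gene, with 20.4% in HSPE1-MOB4, so that its counts are less certain than those of HSPD1 (4.15%).

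HSPB1 (ENSG00000106211.10, chromosome 7 from 76302673 to 76304295, forward strand) encodes HSP27, a small heat shock protein that holds unfolded proteins without using ATP. It had the lowest level in CPM and the widest spread, with 47.9, 58.0, 26.8, 111 and 53.2 CPM in the AppHu libraries and 75.7, 29.5, 59.2, 164 and 79.6 CPM in the AppSAA libraries. Replicate 7 was the highest in both groups, and the highest library had 6.11 times the level of the lowest. The log2 fold change was 0.46 with a standard error of 0.411 (adjusted p = 0.792 in edgeR), and it was 0.042 without AppSAA 7 and 0.81 without AppHu 7. With 65.3% GC in 777 bases, its transcript has the highest GC content of the 10. An index of each library's GC bias was taken over well-expressed genes, as the median deviation of those rich in GC less that of those poor in GC. The cutoffs were the upper and lower 10% of all tested genes with a known GC content. The index was lowest in AppSAA 5 (-0.189) and AppHu 6 (-0.0164) and highest in AppHu 7 (0.104) on the log2 scale. It was 0.0624 in AppSAA 7, the highest library for HSPB1. AppHu 6 and AppSAA 5 were also the lowest libraries for HSPB1 and AppHu 7 was among the highest, whereas AppHu 8, with the index next below AppHu 7 (0.0699), and AppSAA 6 (-0.0095) lay in the middle for HSPB1. With that index as a covariate, a choice made after the data were seen, the adjusted p was 0.0502 for HSPB1 (log2 fold change 0.97), 0.0613 for DNAJB1 (0.77) and 0.0936 for HSP90AA1 (0.27), while HSPE1 passed the threshold (log2 fold change 0.66, adjusted p = 0.0399, all in edgeR). In the same fit 100 human genes were called in place of 12.

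Levels can be set beside each other between genes only per length of transcript. On the scale of CPM per kilobase of the GENCODE transcript, HSPA8 was the highest in AppHu, at 449 ± 59.9 (SD, n = 5). DNAJB1 (313 ± 63.5), HSPE1 (308 ± 76.7), HSPA1A (291 ± 35.7), HSPA1B (287 ± 38.0), HSP90AB1 (266 ± 20.0) and HSP90AA1 (265 ± 22.1) followed, with SDs that overlapped. HSPD1 (101 ± 7.60), HSPB1 (76.3 ± 39.9) and HSPH1 (54.4 ± 16.2) were the lowest. In AppSAA the mean of DNAJB1 was 478 ± 136 and that of HSPE1 438 ± 66.4, beside 429 ± 57.8 for HSPA8, again with SDs that overlapped. The full transcript length was used, although 72.3% of the 101-base stretches of HSPA1A, 72.8% of HSPA1B and 31.3% of HSPE1 occur in another gene. HSPA1B also shares 920 exon bases with a noncoding gene. How reads with several alignments were counted is not given. If they were dropped, these levels are too low, so the order of HSPA1A, HSPA1B and HSPE1 against HSPA8 is not settled.

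The spread between libraries was not the same for all members. The coefficient of biological variation that edgeR estimated was 9.57% for HSP90AA1, 9.65% for HSP90AB1 and 9.49% for HSPD1, below the 13.4% of genes of like abundance. It was 17.9% for HSPE1, 22.0% for DNAJB1, 22.3% for HSPH1 and 44.5% for HSPB1. Within the groups, HSPA8, HSPH1, HSPD1 and HSP90AB1 moved together over the 10 libraries, with a Pearson r of 0.85 to 0.93 between their deviations from the group means. HSPE1, DNAJB1, HSPB1 and HSP90AA1 followed each other less closely, with r from 0.39 (HSP90AA1 and HSPB1) to 0.83 (HSPE1 and DNAJB1), and r between a gene of the first set and one of the second ran from 0.020 (DNAJB1 and HSPH1) to 0.34 (HSPE1 and HSP90AB1). HSPA1A and HSPA1B were placed in neither set. With the second set HSPA1A had r from 0.56 (DNAJB1) to 0.69 (HSP90AA1), and HSPA1B from 0.32 (DNAJB1) to 0.53 (HSPB1). With the first set HSPA1A had r from -0.26 (HSPA8) to 0.055 (HSP90AB1), and HSPA1B from -0.34 (HSPA8) to -0.017 (HSP90AB1). The sets were drawn after the values were seen, and the libraries share their handling, depth and GC bias, so the correlations are given as a description with no test. Of 15454 genes, the 5 whose log2 CPM was most like that of HSPA1A over the 10 libraries were HSPA1B (r = 0.93), AL357874.2 (0.91), WASHC1 (0.90), TRPC5OS (0.89) and BICD1 (0.88). Those most like HSP90AA1 were HSPA6 (0.92), TBC1D12 (0.91), PFKM (0.91), GFI1B (0.90) and DET1 (0.90). This r spans both groups and so includes the difference between them. An r over 0.85 was reached by 13 genes for HSPA1A and 30 for HSP90AA1. Low levels were seen for GFI1B (mean 0.783 CPM), AL357874.2 (2.19) and TRPC5OS (2.80).

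**Figure D2:**
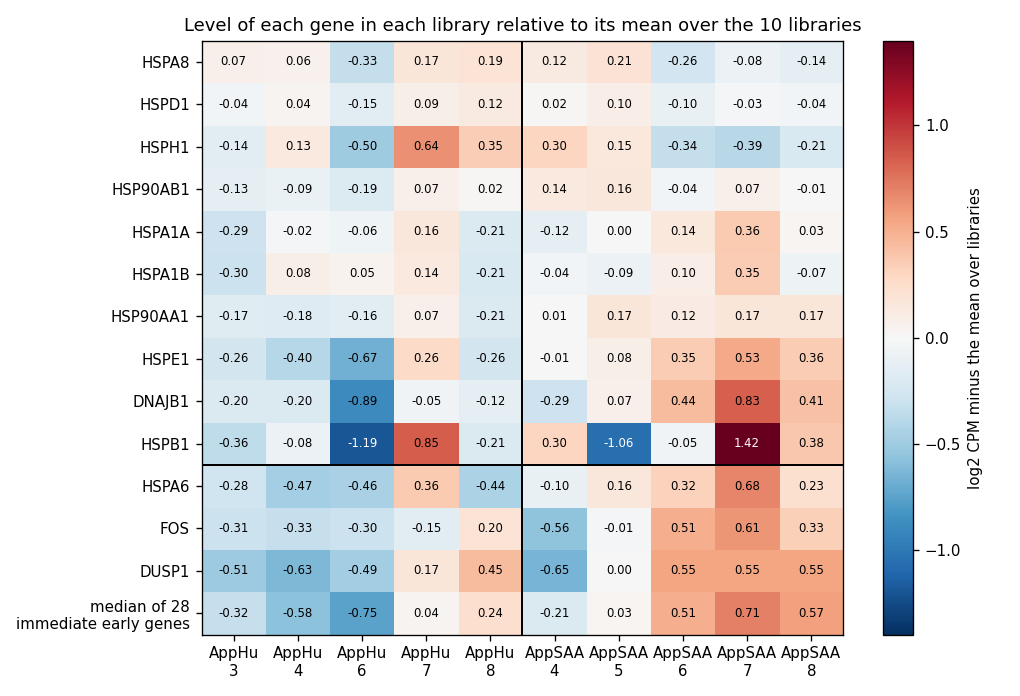
Rows are genes and columns the 10 libraries. Each cell gives the log2 CPM of the gene in that library less its mean over the 10 libraries, with red for above and blue for below, and the last row gives the median of the same quantity over the 28 immediate early genes tested. HSPE1, DNAJB1, HSPA6 and the immediate early median are above 0 in AppSAA 6, 7 and 8, where HSPA8, HSPD1 and HSPH1 are below 0.

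The rest of the chaperone network was read from 7 lists with 87 genes, of which 84 were tested. None of the 84 was called in edgeR, 31 had the higher mean in AppSAA and 53 the lower, and the median log2 fold change was -0.035. An unadjusted p under 0.05 was reached by 7 of the 84, against 9.80% of all genes tested. The regulators HSF1, the factor itself, with 2.81 ± 0.524 CPM (SD, n = 5) in AppHu and 3.25 ± 0.994 CPM in AppSAA, and its relative HSF2, with 36.3 ± 3.22 and 35.9 ± 3.65 CPM, did not pass the test (adjusted p = 0.828 and 0.975 in edgeR).

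Among the 17 tested genes that HSF1 is known to induce beside the members, 9 were higher and 8 lower in AppSAA (median log2 fold change 0.13). An unadjusted p under 0.05 in edgeR was reached by 3 of them, each higher, against 5.99% of all genes tested in that direction. HSPA6, an HSP70 made almost only under stress and missing from the mouse genome, had 127, 111, 112, 198 and 114 CPM in the AppHu libraries and 143, 172, 192, 247 and 180 CPM in the AppSAA libraries. The groups overlapped for HSPA6, as AppHu 7 was higher than every AppSAA library but AppSAA 7. Its log2 fold change was 0.50 with a standard error of 0.174 (unadjusted p = 0.0134 and adjusted p = 0.333 in edgeR). UBB, which encodes ubiquitin, the tag for degradation, had a log2 fold change of 0.23 (adjusted p = 0.265 in edgeR). BAG3, which links HSP70 to autophagy, had one of 0.48 (adjusted p = 0.511) on a level of 4.55 to 6.31 CPM in the group means, and DNAJB4, another HSP40, one of 0.24 (adjusted p = 0.537). SERPINH1, the collagen chaperone (-0.24), DNAJB6 (-0.15), the HSP70-HSP90 adaptor STIP1 (-0.14), HSPA4 (-0.029), DNAJA1 (-0.020), CHORDC1 (-0.012) and CACYBP (-0.0046) were on the other side of 0, and none passed the test. HSPB8 and CRYAB, small heat shock proteins, had at most 9 and 4 counts in any library and were not tested.

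Among the lists with less dependence on HSF1, 4 had a median below 0. Of the 22 cochaperones of HSP70 and HSP90, 15 were lower in AppSAA (median -0.045), among them PTGES3 (-0.041) and STUB1 (-0.20), with ST13 at 0.024. Of the 8 subunits of the TRiC/CCT chaperonin, which folds actin and tubulin, 6 were lower (median -0.048). Of the 10 other mitochondrial chaperones and proteases, 7 were lower (median -0.11), with the mitochondrial HSP70 HSPA9 at -0.0034 and TRAP1 at 0.13. Of the 17 genes for chaperones and stress response of the endoplasmic reticulum, 14 were lower (median -0.079), with HSPA5 (BiP) at -0.17, DNAJB9 at -0.22, HSP90B1 (GRP94) at 0.021 and DDIT3 at 0.15. The oxidative stress list was on the other side of 0, with 4 of 5 genes higher in AppSAA (median 0.042), HMOX1 at 0.041 among them and GCLM the highest at 0.42. None of these genes was called, and the smallest adjusted p among those named was 0.385 (DNAJB9, edgeR).

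Immediate early genes, which cells switch on within minutes of a stimulus or of handling, were read beside the chaperones. Of 30 listed, 28 were tested, and all 28 had the higher mean in AppSAA, with a median log2 fold change of 0.54. An unadjusted p under 0.05 was reached by 15 of the 28, where 5.99% of all genes reached it in that direction. In edgeR 2 of the 28 were called, against 0.0776% of all genes tested. They were EGR1 and EGR3, both transcription factors of this class. The list, which also holds CCL3, CCL4, NFKBIA and MCL1, was chosen with earlier results of these data known. These counts are therefore a description and not an independent comparison. EGR1 had 5.49 ± 1.14 CPM (SD, n = 5) in AppHu and 15.4 ± 5.01 CPM (SD, n = 5) in AppSAA (log2 fold change 1.48, standard error 0.230, adjusted p = 0.0331 in edgeR), and EGR3 had 6.27 ± 0.539 and 14.2 ± 4.26 CPM (1.18, standard error 0.183, adjusted p = 0.0331). The 5 AppSAA libraries lay above the 5 AppHu libraries for both genes. The groups did not overlap for 3 of the 28 genes, against 2.49% of all genes tested. DESeq2 called 3 of the 28 genes, against 1.39% of all genes tested, with EGR1 (adjusted p = 3.8e-07) and EGR3 (adjusted p = 1.2e-06) among them. In limma-voom both were called as well (adjusted p = 0.0238 for EGR1 and 0.0186 for EGR3). Left out in turn, 8 of the 10 libraries each ended the call of EGR1 and 7 that of EGR3, with an adjusted p of up to 0.156 for each without AppHu 3. Both calls were also lost with the library total (adjusted p = 0.108) or the mouse share (adjusted p = 0.112) as a covariate in edgeR. The 6 human markers of CNS-associated macrophages summed to 3487 to 4070 CPM in AppHu and 2927 to 3785 CPM in AppSAA, and 1 of them, SIGLEC1, was at 229 CPM in AppSAA 4 against 30.1 to 54.8 CPM in the other AppSAA libraries and 53.4 to 92.2 CPM in AppHu. Their part in the change of the immediate early genes was not tested. FOS had a log2 fold change of 0.40, JUN one of 0.63, ATF3 one of 1.37 and DUSP1 one of 0.41, none called (adjusted p = 0.522, 0.495, 0.329 and 0.673).

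The immediate early genes and part of the chaperones were high in the same libraries. The median deviation of the 28 genes from their own means was 0.51, 0.71 and 0.57 in AppSAA 6, 7 and 8, the 3 libraries with the most DNAJB1 and HSPE1, and -0.75 in AppHu 6, the library with the least. AppHu 8, at 0.24, was the highest AppHu library in immediate early genes but was at -0.21 for HSPA1A and HSP90AA1. AppHu 7, at 0.037, was the highest AppHu library for HSPA1A, HSP90AA1, HSPE1, DNAJB1 and HSPB1. The human totals were 28386080 to 38325734 in AppHu and 24165871 to 30556909 in AppSAA, and the share of ribosomal protein counts was 0.673% to 0.907% and 0.681% to 0.828%. The part of handling, depth and GC bias in the differences above was not tested, and a handling effect common to a group cannot be told apart from the genotype.

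**Figure D3:**
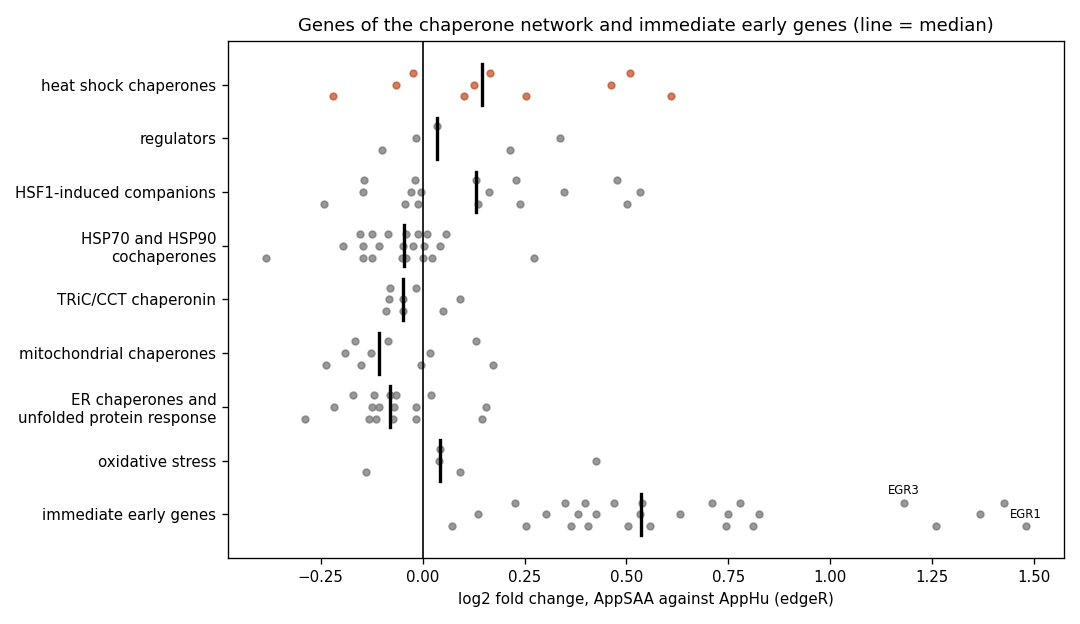
The horizontal axis is the log2 fold change of AppSAA against AppHu in edgeR, with 1 point per gene tested and a black line at the median of each list, and the vertical jitter has no meaning. The 28 immediate early genes all lie above 0, the 10 heat shock chaperones lie between -0.22 and 0.61, and the medians of the cochaperone, TRiC/CCT, mitochondrial and endoplasmic reticulum lists lie below 0.

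Counts on mouse genes come from what of the host passed the sort, or from human reads placed on the wrong species, and were read for the same chaperones. Mouse genes had 617463 to 1612222 counts per library. Oligodendrocyte genes were prominent among them, with all 4 listed markers detected and a summed level of 34697 to 72224 CPM of the mouse counts in AppHu and 14997 to 44618 in AppSAA. The 6 mouse microglia markers summed to 3736 to 8135 and 5861 to 13341 CPM. Of the orthologues 9 were tested, and Hspb1, with at most 12 counts in any library, was not. None was called among 9376 mouse genes, of which 0% were called in edgeR, while DESeq2 called 12, among them 1 orthologue. Of the 9, 6 had the lower mean in AppSAA (median log2 fold change -0.29, beside 0.027 over all mouse genes tested). Hsp90ab1, Hsph1, Hsp90aa1 and Dnajb1 had an unadjusted p under 0.05, all lower, as did 4.77% of all mouse genes in that direction.

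Mouse Hsp90ab1 had 1644, 1360, 1844, 1634 and 1399 CPM of the mouse counts in the AppHu libraries and 1082, 995, 1235, 1218 and 1003 CPM in the AppSAA libraries. Its log2 fold change was -0.51 with a standard error of 0.178 (adjusted p = 0.456 in edgeR and 0.0434 in DESeq2). Hsp90aa1 had 477 ± 111 and 340 ± 51.2 CPM (SD, n = 5 each, log2 fold change -0.49), Hsph1 185 ± 54.1 and 104 ± 38.0 CPM (-0.82) and Dnajb1 112 ± 54.6 and 65.6 ± 15.2 CPM (-0.76), on 27 to 225 counts per library for Dnajb1. The other 5 were Hspa8 (-0.29), Hspd1 (-0.15), Hspe1 (0.20), Hspa1a (0.33) and Hspa1b (0.26), and Hspa1a rested on 11 to 95 counts. Hspa1a and Hspa1b turned to -0.18 and -0.16 without AppSAA 5. The counts on mouse Hsp90ab1 were 2.92% to 12.7% of those on human HSP90AB1, so that reads placed on the wrong species would weigh more on the mouse gene.

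The difference between the species was tested on the log2 ratio of the human to the mouse level in each library, with 1 CPM added to the mouse level, a comparison added after the values were seen. The ratio of DNAJB1 to Dnajb1 was higher in AppSAA by 1.25 on the log2 scale (mean log2 ratio 3.99 ± 0.375 against 2.75 ± 0.480, SD, n = 5 each), with all 5 AppSAA libraries above the AppHu libraries (2-sided exact permutation test, p = 0.00794, the smallest possible, not adjusted over the 9 pairs compared). That of HSP90AB1 to Hsp90ab1 was higher by 0.64 (exact permutation test, p = 0.00794, 5 of 5 libraries), and that of HSP90AA1 to Hsp90aa1 by 0.72 (exact permutation test, p = 0.0159, 4 of 5 libraries). The other 6 pairs had a p over 0.05, with HSPH1 nearest (0.66, exact permutation test, p = 0.0556). The summed oligodendrocyte level, given above, was lower in AppSAA together with these mouse genes, and its part in the difference was not tested.

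**Figure D4:**
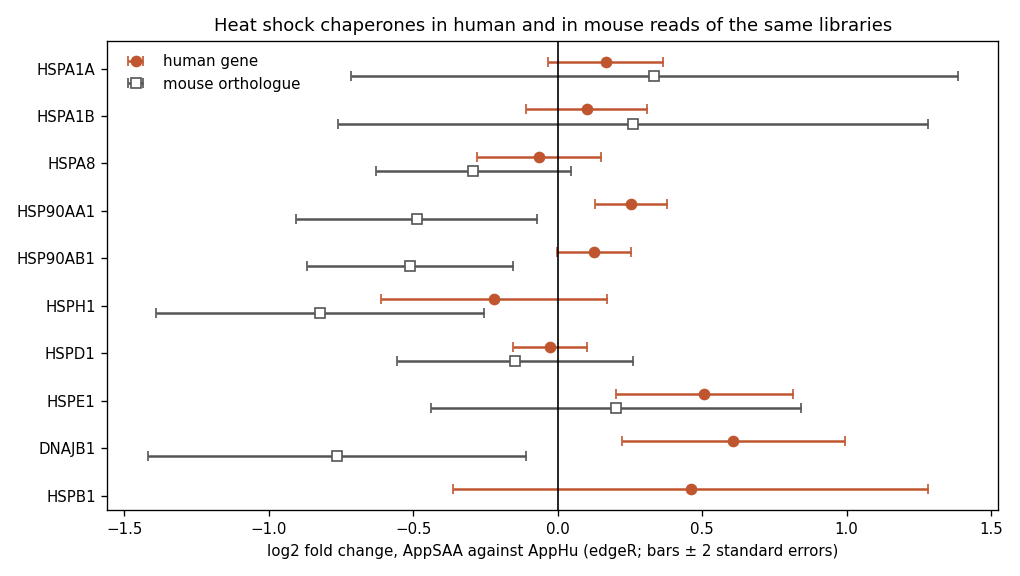
The horizontal axis is the log2 fold change of AppSAA against AppHu in edgeR, with filled points for the human gene and open squares for its mouse orthologue, and bars of 2 standard errors on each side. For HSP90AA1, HSP90AB1 and DNAJB1 the human value is above 0 (0.25, 0.13 and 0.61) and the mouse value below 0 (-0.49, -0.51 and -0.76), and Hspb1 was not tested.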

How the data were processed

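Per the labels and the study's methods, 10 libraries of full-length cDNA (SMART-Seq HT PLUS) were sequenced as single reads, which the authors aligned with STAR 2.7.11a to a combined mm10 and GRCh38 database and counted per gene with featureCounts 2.0.1. The deposited values are whole-number counts without normalization. The annotation release, the strand setting and the treatment of reads with several alignments are not given in the sources used here. Human rows are those above the mouse gene Xkr4.

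A human gene needed 10 or more counts in 6 or more libraries (15455 genes). The test was that of edgeR 4.0.16 in R 4.3.3 (TMM, glmQLFit in legacy mode, glmQLFTest), with Benjamini-Hochberg adjustment at a threshold of 0.05, AppSAA against AppHu, without covariates. Mouse genes (9376) were fitted apart. The standard error is the absolute log2 fold change over the square root of F. CPM are TMM-normalised and log2 CPM in the likeness of genes used a prior count of 2. DESeq2 1.42.0, the study's tool, and limma-voom (limma 3.58.1) were alternatives, with other factors, filters, covariates, a replicate block and each library left out. The fits were tested on simulated data. Positions and lengths are from GENCODE 44, and GC content and length were found for 83.2% of the genes tested.

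The members and all gene lists were chosen with earlier results of these data known. The text names all members, set genes of each list and any list gene past the threshold, and 1 gene of the lists is not reported here. The labels do not say whether same-numbered libraries of the groups are pairs, and the numbers were not taken as pairs. Their deviations had correlations of 0.061, 0.032, 0.18 and 0.11 (numbers 4, 6, 7 and 8). Numbers 4, 7 and 8 were matched best by their own partner and number 6 was not, so a pairing was not settled.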

Additional observations from a re-analysis of the deposited data

Results flagged for a closer look

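Some libraries stood apart from the other 4 of their group by Dixon's criterion (a gap to the nearest library that takes up most of the group's range), in 4 of the 48 groups of 5 values examined, where chance flags about 1 in 20. AppHu 6 was low in HSPA8, at 785 CPM against 1028 to 1124 in the other AppHu libraries, and low in DNAJB1, at 455 CPM against 733 to 814. AppHu 7 was high in HSP90AA1, at 982 CPM against 809 to 836. AppSAA 7 was high in the summed level of the 10 chaperones, at 6998 CPM against 5703 to 6072 in the other AppSAA libraries.

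The log2 ratio of the human to the mouse level had an unadjusted p under 0.05 between AppSAA and AppHu for 3 of 9 pairs (exact permutation test). The comparison was added after the values were seen, and its p-values were not adjusted over the pairs. The difference of the human less the mouse effect was 0.72 for HSP90AA1, 0.64 for HSP90AB1 and 1.25 for DNAJB1. These mouse reads come from a mixture of cell types, whose makeup was not controlled in the test.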

How the results depend on the processing

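The members kept their direction and their side of the threshold in 219 of 222 combinations of a member and an alternative. The exceptions were HSPE1 with the GC index as a covariate (0.66, adjusted p = 0.0399), HSPB1 with the replicate block (0.66, adjusted p = 0.0444), each making the count of members called 1, and HSPD1, which was 0.0036 without AppHu replicate 8. The block used the numbers 4, 6, 7 and 8 and called 58 human genes, 1 companion gene (HSPA6) and 5 immediate early genes. The same 8 libraries without it called 6 genes, 1 of them immediate early. Of the 4 numbers, 3 were matched best by their own partner. DESeq2 called 1 companion gene, 3 immediate early genes and 1 mouse orthologue (Hsp90ab1). Over all human genes, 215 were called in DESeq2, 52 in limma-voom, 32 without the filter, 1 with the library total and 5 with the mouse share as a covariate, and 2 to 33 with a library left out.

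With each library left out in turn, the log2 fold changes ran from 0.089 to 0.23 for HSPA1A, 0.017 to 0.15 for HSPA1B, -0.15 to -0.0095 for HSPA8, 0.23 to 0.31 for HSP90AA1, 0.095 to 0.16 for HSP90AB1, -0.35 to -0.065 for HSPH1, -0.065 to 0.0036 for HSPD1, 0.41 to 0.66 for HSPE1, 0.46 to 0.73 for DNAJB1 and 0.042 to 0.81 for HSPB1. Members called stayed at 0, companions called were 0 to 1 and immediate early genes called 0 to 2. Members with an unadjusted p under 0.05 were 3 to 5. The HSP70 ratio ran from 0.11 to 0.30. Mouse Hspa1a and Hspa1b turned negative with the block (-0.24 and -0.11), with the same 8 libraries without it (-0.27 and -0.29) and without AppSAA replicate 5 (-0.18 and -0.16), and with each library left out ran up to 0.57 and 0.77. The difference between the species ran from -0.48 to 0.36 for HSPA1A, -0.59 to 0.15 for HSPA1B, 0.44 to 0.82 for HSPH1, 0.61 to 0.83 for HSP90AA1, 0.54 to 0.70 for HSP90AB1 and 1.09 to 1.37 for DNAJB1. The cause of these shifts was not tested. The GC index, the 8 libraries alone and the comparison of species were chosen after seeing the data.

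Sums with pseudogenes of the members were not run, as none carried such a name in the table. With 5 libraries per group the standard errors of the members, 0.0625 to 0.411, set the size of change within reach, and mouse Hspa1a and Dnajb1 rest on few counts.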
